A study of Homo sapiens with 12 samples.

Results

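The 32 genes described here are the zinc finger genes named ZNF and a number that held at least 500 counts summed over 12 RNA sequencing libraries of U2OS cells. They were chosen by that name and that sum from 478 rows named in this way, in a table of 58684 rows. The choice used the summed counts of the same libraries, so how abundant they are is a description and not a finding. U2OS is a human osteosarcoma cell line, and the cells carried in stable form either eIF4E-Flag or the vector alone. Each kind of cell gave RNA pulled down by a cap immunoprecipitation (Cap IP) and input RNA, which makes 4 groups of 3 libraries: eIF4E Cap IP, eIF4E input, vector Cap IP and vector input. The title of the series puts the question whether eIF4E raises the share of transcripts that carry an m7G cap. The labels do not say whether the stable cells are a clone or a pool, or whether the 3 libraries of a group are separate cultures. The p-values therefore measure only the spread between these libraries.

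Most proteins of the ZNF family carry tandem C2H2 zinc fingers, loops folded around a zinc ion that read DNA. Many of them also hold a KRAB box, which recruits the scaffold TRIM28 and through it the histone methyltransferase SETDB1 to silence transposable elements and other chromatin, and a large share of the KRAB genes lies in clusters on chromosome 19. Others hold a SCAN domain, through which these proteins pair, or neither. The m7G cap is a methylated guanosine at the 5′ end of mRNAs, eIF4E is the initiation factor that binds it, and a Cap IP pulls down RNA through that cap. The name ZNF does not make every member a transcription factor. ZNF598 is a ubiquitin ligase that marks collided ribosomes, and ZNF185 is a LIM domain protein of the actin cytoskeleton.

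The 32 genes held 37693 counts in all, which was 50.4% of the counts of the 478 ZNF rows. The other 446 rows held a median of 32.5 counts, and 31 of them had none in any library. The largest sums were 4301 counts for ZNF575, 3676 for ZNF276, 2841 for ZNF771, 2805 for ZNF3, 1693 for ZNF609 and 1498 for ZNF497, and these 6 held 44.6% of the counts of the 32. Just inside the threshold were ZNF562 with 527 counts, ZNF646 with 566 and ZNF891 with 569. Just outside it were ZNF549 with 487, ZNF143 with 484 and ZNF207 with 482. By the gene models of GENCODE release 44 on GRCh38, 7 of the 32 genes (21.9%) lay on chromosome 19, against 231 of the 440 other ZNF rows that matched a model (52.5%). From background knowledge 9 of the 32 have a KRAB box, namely ZNF3, ZNF7, ZNF224, ZNF235, ZNF496, ZNF517, ZNF562, ZNF814 and ZNF891. ZNF496 and ZNF232 have a SCAN domain. Their exons covered between 2370 bases (ZNF513) and 17434 bases (ZNF891).

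**Figure D1:**
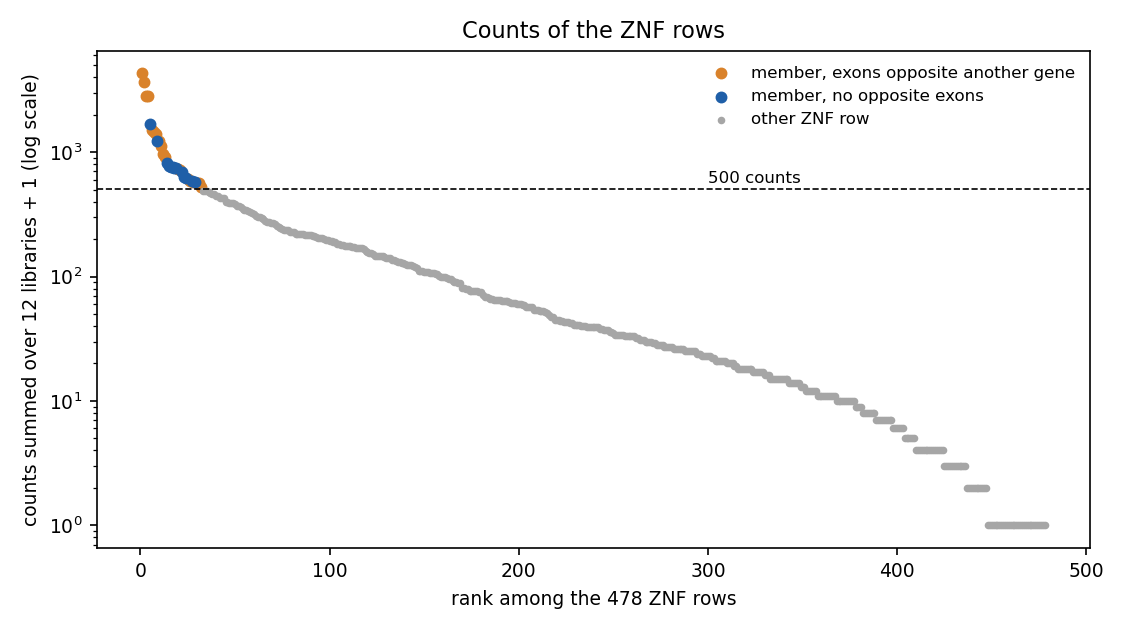
Counts summed over the 12 libraries, plus 1, on a log axis, for the 478 ZNF rows in order of their sum. The dashed line marks the 500 counts of the rule. The 32 genes above it run to 4301 counts for ZNF575, and 19 of them (orange) have exons opposite to exons of another gene.

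Promoters are shown for 4 genes that moved in the Cap IP, each from 250 bases before to 50 bases after the RefSeq gene start on GRCh38.p14, read 5′ to 3′ on the strand of the gene. ZNF224 and ZNF235, KRAB genes on chromosome 19, were higher in the Cap IP of eIF4E cells, and capitals mark a match to the ZNF143 motif on the other strand. ZNF609 and ZNF592, both on chromosome 15, were lower in the Cap IP of both kinds of cell. Capitals mark the ETS motif CCGGAAG on the other strand in ZNF609 and the GC box GGGCGG on either strand in ZNF592.
ZNF224 (chr19:44094111-44094410, plus strand): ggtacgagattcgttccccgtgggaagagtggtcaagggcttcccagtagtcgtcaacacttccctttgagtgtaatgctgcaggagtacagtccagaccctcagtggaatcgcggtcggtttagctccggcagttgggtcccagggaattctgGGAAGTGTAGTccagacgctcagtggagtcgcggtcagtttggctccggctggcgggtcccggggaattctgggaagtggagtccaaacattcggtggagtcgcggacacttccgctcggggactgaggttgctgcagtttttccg
ZNF235 (chr19:44304976-44305275, minus strand): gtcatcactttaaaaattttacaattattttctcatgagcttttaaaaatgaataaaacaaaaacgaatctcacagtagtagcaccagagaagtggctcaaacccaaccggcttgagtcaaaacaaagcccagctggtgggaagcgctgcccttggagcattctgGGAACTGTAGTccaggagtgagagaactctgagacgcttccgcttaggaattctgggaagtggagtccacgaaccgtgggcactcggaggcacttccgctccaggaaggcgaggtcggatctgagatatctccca
ZNF609 (chr15:64460328-64460627, plus strand): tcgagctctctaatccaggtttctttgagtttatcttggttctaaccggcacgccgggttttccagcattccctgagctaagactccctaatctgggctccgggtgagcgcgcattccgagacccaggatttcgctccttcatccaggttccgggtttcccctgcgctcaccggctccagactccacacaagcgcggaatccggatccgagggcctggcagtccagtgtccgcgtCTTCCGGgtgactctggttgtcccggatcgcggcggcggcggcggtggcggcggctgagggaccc
ZNF592 (chr15:84748342-84748641, plus strand): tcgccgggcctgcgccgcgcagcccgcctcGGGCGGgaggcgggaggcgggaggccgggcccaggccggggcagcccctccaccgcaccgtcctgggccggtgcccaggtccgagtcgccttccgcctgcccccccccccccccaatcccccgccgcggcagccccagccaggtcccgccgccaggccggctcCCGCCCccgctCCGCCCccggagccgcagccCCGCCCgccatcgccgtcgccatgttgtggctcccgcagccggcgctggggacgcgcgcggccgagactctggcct
RefSeq promoters were matched for 27 of the 32 genes, and 10 motifs were searched on both strands. The ZNF143 motif stood in 2 of the 27 (7.41%), the ZNF224 and ZNF235 promoters printed above. It stood in 12.8% of 405 ZNF promoters and 2.32% of all 27305 promoters of the same length. The ETS motif stood in 12 of 27 (44.4%), against 42.5% of ZNF promoters and 12.2% of all. The GC box stood in 19 of 27 (70.4%), 68.6% of ZNF promoters and 48.3% of all, and the CCAAT box in 7 of 27 (25.9%), 52.8% and 39.7%. Shares of the ETS motif and the GC box in the 27 promoters were thus near those of ZNF promoters as a whole. The TATA box TATAAA, the E box CACGTG and the CRE motif TGACGTCA were found in 2 of the 27 each, and the AP-1 motif TGANTCA in 3. The NRF1 and YY1 motifs were found in 0 of them. A match is a run of letters and not a site shown to be bound.

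Libraries held 1206321 to 1813486 counts. Values are given as CPM, counts per 1000000 of the TMM-scaled library size, and 3 counts, taken as the floor, equal 1.19 to 3.15 CPM. TMM factors were 0.667 to 0.891 in the Cap IP and 1.17 to 1.49 in input. EIF4E itself had 25.1 to 29.8 CPM in eIF4E Cap IP and 12.6 to 19.2 CPM in vector Cap IP, and 11.9 to 15.4 CPM in eIF4E input and 4.81 to 9.70 CPM in vector input. It did not overlap between eIF4E and vector in either, and it did not pass edgeR's quasi-likelihood test with Benjamini-Hochberg adjustment (adjusted p = 0.492 in Cap IP and 0.231 in input). Of 13 mesenchymal and osteoblast markers 8 were tested, with summed CPM of 1061 to 1286, 1734 to 2104, 1136 to 2524 and 2096 to 2875 in eIF4E Cap IP, eIF4E input, vector Cap IP and vector input, and TWIST1 was at 0 in every library. VIM, COL1A1, SPARC and FN1 led these sums, with 15467, 10693, 5646 and 3565 counts over the 12 libraries. Other markers of the list were near the floor, namely COL1A2 with 2 counts, BGLAP with 17, SPP1 with 27 and ALPL with 59. The 5 blood markers summed to at most 8.92 CPM in any library, with HBB at 0. The 5 epithelial markers, led by keratins that many cultured lines express, summed to 4909 to 6586, 2455 to 4006, 3048 to 4655 and 1366 to 2242 CPM in the same 4 groups, and the 4 neuronal markers to between 24.6 and 78.8 CPM. The part of these markers in the results was not tested.

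The strand of the counted reads limits what the ZNF counts stand for. The kit was stranded, and no source used here gives the strand on which reads were counted. The antisense row VIM-AS1 averaged 17369 counts a library, while VIM, for an intermediate filament protein, averaged 1289, and MT-ND6, on the other strand of the mitochondrial genome, held 6805 against 1304 for MT-CO1. Exons of 19 of the 32 genes (59.4%) lay opposite to exons of another gene, against 142 of 440 other matched ZNF rows (32.3%). For 15 of the 19 a row of the gene opposite could be matched, in 17 pairs, and the ZNF row held more counts than its partner in 14 of them. ZNF575 held 4301 counts against 159 for ETHE1, a mitochondrial sulfur dioxygenase gene whose 5′ end overlaps its own over 238 bases of exon. ZNF771 held 2841 against 189 for DCTPP1, and ZNF3 2805 against 237 for ZSCAN21. The reverse held for ZNF219 with 1406 against 3938 for ARHGEF40, ZNF687 with 590 against 871 for PI4KB and ZNF513 with 719 against 724 for SNX17. Whether reads were counted on the strand of the gene or on the opposite strand was not tested. RNA of a gene and RNA of its opposite strand therefore cannot be told apart in any of the 32 rows. The 13 genes without annotated exons opposite to them are not free of this doubt. A row of the gene opposite is no control for its ZNF row. Below, the 2 sets are given apart.

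In input RNA no ZNF gene of the 32 passed the test between eIF4E and vector cells in the main fit, which had no block. The quasi-likelihood test of edgeR, with Benjamini-Hochberg adjustment over 12460 rows, called 0 of 32, against 0.53% of all rows called. DESeq2 called 0 of 32 as well, against 0.361% of all rows called higher and 0.851% lower. At an unadjusted p under 0.05 there were 5 of the 32 (15.6%), against 13.5% of all rows. The median log2 difference of the 32 was 0.01, with 17 above 0 and 15 below, against -0.05 over all rows. Groups did not overlap for 9 of the 32, 6 higher and 3 lower in eIF4E cells, against 8.45% of all rows higher and 10.2% lower.

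ZNF395, a factor that hypoxia induces, came nearest to a call. It had 43.9, 36.7 and 86.2 CPM in eIF4E input, against 12.3, 27.8 and 27.8 CPM in vector input. All eIF4E libraries lay above all vector libraries, and eIF4E replicate 3 stood above the other two. The log2 difference was 1.27 ± 0.37 (SE, n = 3 libraries a group), which did not pass edgeR's test (adjusted p = 0.136). Without eIF4E replicate 3 it was 0.82. With the title tag, which an eIF4E and a vector library share, as a block it passed (1.26 ± 0.30, edgeR adjusted p = 0.018). That block called 1.28% of all rows higher and 2.43% lower. By the rule on residual correlations given below, the tag does not pair input libraries. ZNF787 had 29.6, 34.7 and 48.3 CPM in eIF4E input, against 18.7, 23.0 and 16.9 CPM in vector input, without overlap (log2 0.94 ± 0.32, edgeR adjusted p = 0.188). ZNF598, the ligase of collided ribosomes, had 86.2, 102 and 98.1 CPM in eIF4E input, against 59.5, 66.8 and 38.4 CPM in vector input, also without overlap (log2 0.80 ± 0.29, edgeR adjusted p = 0.222). A lncRNA lies opposite to ZNF598 exons over 504 bases. ZNF517, a KRAB gene on chromosome 8 with no exons opposite, had 66.8, 59.1 and 67.0 CPM in eIF4E input, against 145, 74.3 and 119 CPM in vector input. Its log2 difference of -0.81 ± 0.34 did not pass edgeR's test (adjusted p = 0.293). ZNF608 had the lowest log2 difference, -1.15 ± 0.55 (edgeR adjusted p = 0.364), with 47.0, 23.5 and 6.75 CPM in eIF4E input, against 47.8, 26.2 and 98.2 CPM in vector input. Its libraries spread widely within both groups and overlapped, and the value moved to -1.91 without eIF4E replicate 1, -0.70 without eIF4E replicate 3 and -0.50 without vector replicate 3.

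In Cap IP RNA, too, no ZNF gene of the 32 passed between eIF4E and vector cells by edgeR's quasi-likelihood test or by DESeq2. Of all rows edgeR called 0.225%, and DESeq2 called 0.241% higher and 0.361% lower. At an unadjusted p under 0.05 there were 0 of the 32, against 9.2% of all rows. The median log2 difference was 0.07, against -0.01 over all rows. The smallest adjusted p by edgeR was 0.592, for ZNF592. This gene had 7.18, 5.79 and 7.93 CPM in eIF4E Cap IP, against 8.75, 10.5 and 15.3 CPM in vector Cap IP (log2 -0.75 ± 0.40). The groups of ZNF592 did not overlap, and its highest value was 15.3 CPM. Without vector replicate 3 the difference was -0.43. ZNF496, a SCAN and KRAB protein that binds the methyltransferase NSD1 in mouse, had 17.4, 25.1 and 39.7 CPM in eIF4E Cap IP, against 46.7, 32.6 and 49.2 CPM in vector Cap IP (log2 -0.65 ± 0.34, edgeR adjusted p = 0.599). The ZNF496 difference was -0.38 without eIF4E replicate 1 and -1.003 without eIF4E replicate 3. ZNF562 was the other gene without overlap, with 25.7, 32.8 and 27.8 CPM in eIF4E Cap IP, against 19.4, 24.2 and 21.1 CPM in vector Cap IP, and it was named after its values were seen. Groups without overlap were found in 13.6% of all rows.

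**Figure D2:**
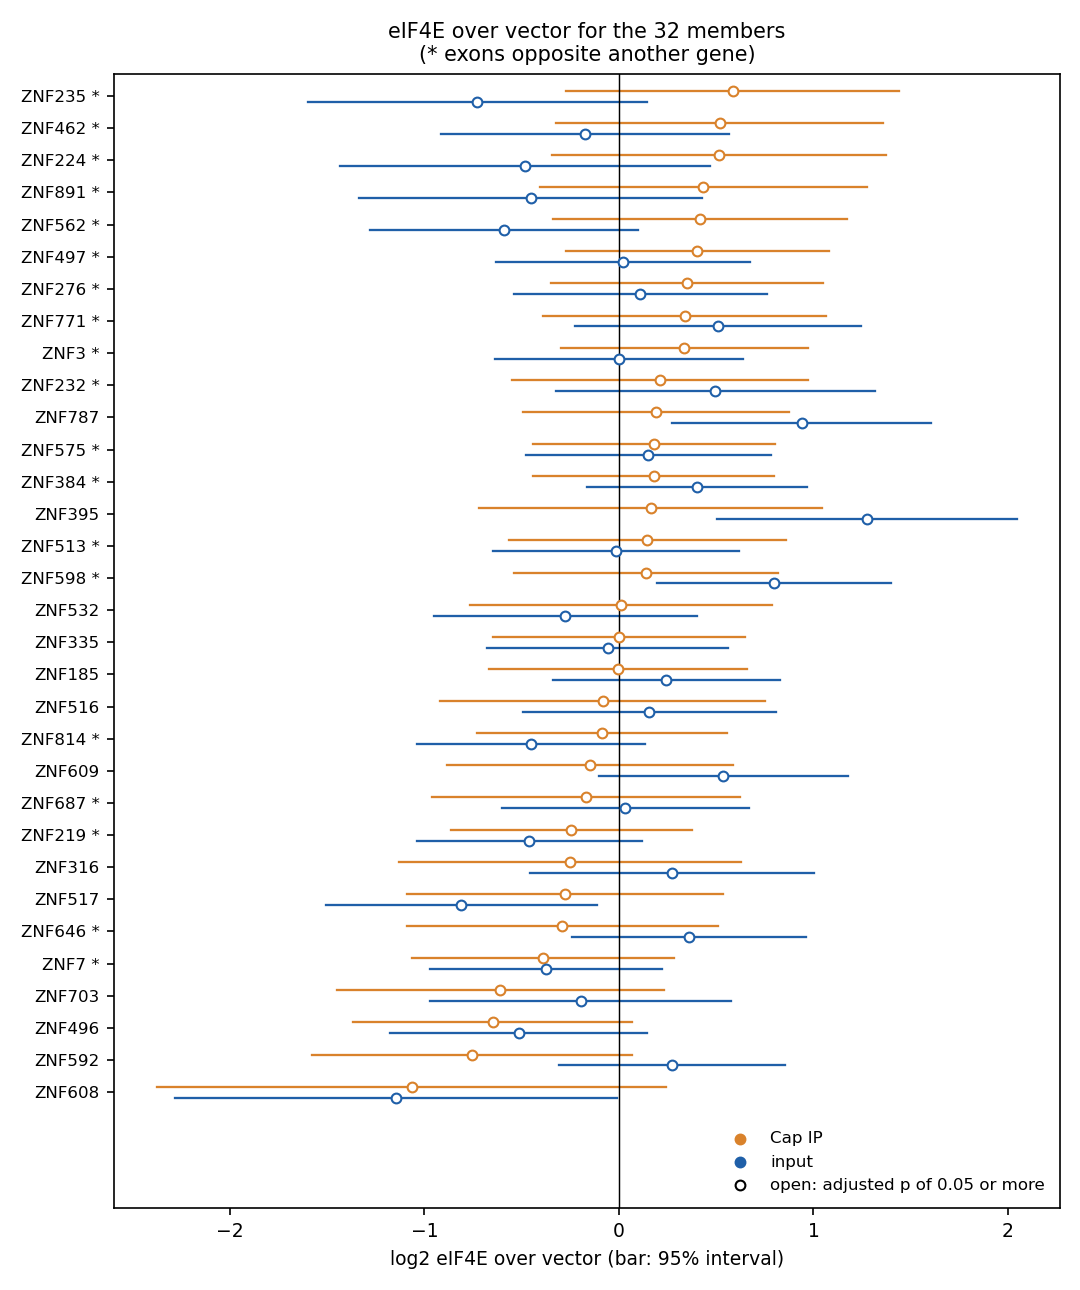
Log2 difference of eIF4E over vector cells for the 32 genes, in Cap IP (orange) and input (blue), with 95% intervals from edgeR's fit of 12 libraries. Every point is open because no adjusted p was under 0.05. The highest point is ZNF395 in input at 1.27, and the lowest ZNF608 in input at -1.15.

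Between Cap IP and input most of the 32 genes changed. In eIF4E cells 7 were higher and 13 lower in the Cap IP by edgeR's test, against 21.9% and 23.3% of all rows (45.1% in either direction). In vector cells 6 were higher and 17 lower, against 18.5% and 21.0% of all rows (39.5% in either direction). Without vector Cap IP replicate 2 the number lower in vector cells fell to 10. In both kinds of cell 18 genes were called in the same direction, 6 higher and 12 lower, and none was called in opposite directions. The median log2 change of the 32 was -0.69 in eIF4E cells and -0.86 in vector cells, against -0.13 and -0.04 over all rows. The 135 ZNF rows under 500 counts that could be tested had medians of -0.45 and -0.38, with 14 higher and 25 lower in eIF4E cells and 19 higher and 21 lower in vector cells. As a share of all counts, the 32 genes held 0.161% ± 0.00858 in eIF4E Cap IP and 0.264% ± 0.0169 in eIF4E input, and 0.144% ± 0.00798 in vector Cap IP and 0.249% ± 0.0171 in vector input (SD, n = 3 each). These shares did not overlap between Cap IP and input. On the TMM scale they did: the CPM of the 32 summed to 2012 to 2334 in eIF4E Cap IP and 1903 to 2166 in eIF4E input, and to 1749 to 2111 in vector Cap IP and 1820 to 2118 in vector input. The rule took the sum over Cap IP and input, so it is not independent of this comparison. In Cap IP alone 6 of the 32 reached 500 counts, in input alone 21, and on neither side alone 10. Of the 32, 16 reached 500 in input and not in Cap IP, and 1, ZNF232, in Cap IP and not in input. Among the 16 were ZNF592 (681 counts in input and 64 in Cap IP), ZNF609 (1492 and 201) and ZNF335 (646 and 113). The rule thus took more of the 32 through input, and the number lower and the median below 0 are not free of it. Nor are the falls given below for genes among these 16, or the rise of ZNF232. The same holds for the changes of genes that reached 500 on neither side alone. Among these were ZNF646 (495 counts in input and 71 in Cap IP), ZNF516 (491 and 80), ZNF687 (498 and 92), ZNF395 (489 and 125) and ZNF185 (487 and 141). ZNF224 (165 and 438) and ZNF891 (217 and 352) held more in Cap IP.

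These directions depend on how Cap IP and input libraries are set against each other. With the 13 mitochondrial mRNAs as library sizes the median over all rows moved to 0.03 in eIF4E cells and 0.97 in vector cells, and with total counts to -0.97 and -0.76. With the mitochondrial scaling 5 of the 32 were higher and 3 lower in eIF4E cells, against 6.79% and 5.67% of all rows. In vector cells 8 were higher and 0 lower, against 23.3% and 4.43%, and 6 of the genes called lower there turned to a value above 0. With total counts 5 were higher and 22 lower in eIF4E cells, against 8.99% and 46.6% of all rows. In vector cells 4 were higher and 23 lower, against 6.21% and 39.7%. Relative to the median of all rows, the median of the 32 was -0.56 in eIF4E cells and -0.82 in vector cells on the TMM scale. Other library sizes shift all rows nearly alike, so they do not test this offset. The values below are on the TMM scale.

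The 7 genes called higher in the Cap IP without a block all have exons opposite to another gene. Of the 19 genes with such exons 7 were higher and 5 lower in eIF4E cells, with a median of -0.42, against 23.6% and 22.0% of all 4937 rows tested with such exons. In vector cells 6 were higher and 9 lower, with a median of -0.72, against 19.3% and 19.8% of those rows. Of the 13 without them 0 were higher and 8 lower in each kind of cell, not all the same genes, with medians of -1.46 and -1.12. At an unadjusted p under 0.05 as many as 9 of the 13 differed in each. Of rows tested without exons opposite 43.7% differed in eIF4E cells and 40.1% in vector cells, and of all rows 52.4% and 48.1%. DESeq2 called 0 of the 13 higher as well. With the title stem as a block 1 of the 13, ZNF787, was called higher in vector cells, and 9 were lower in each. That block called 26.1% of all rows higher and 27.6% lower in eIF4E cells, and 23.3% and 25.5% in vector cells. By the rule used the stem does not pair eIF4E libraries. Among all 4718 rows tested without exons opposite, 7.14% were higher and 29.2% lower in eIF4E cells, and 8.5% were higher and 22.7% lower in vector cells. Among the 68 other ZNF rows tested without them, 2 were higher and 15 lower in eIF4E cells and 5 higher and 15 lower in vector cells.

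**Figure D3:**
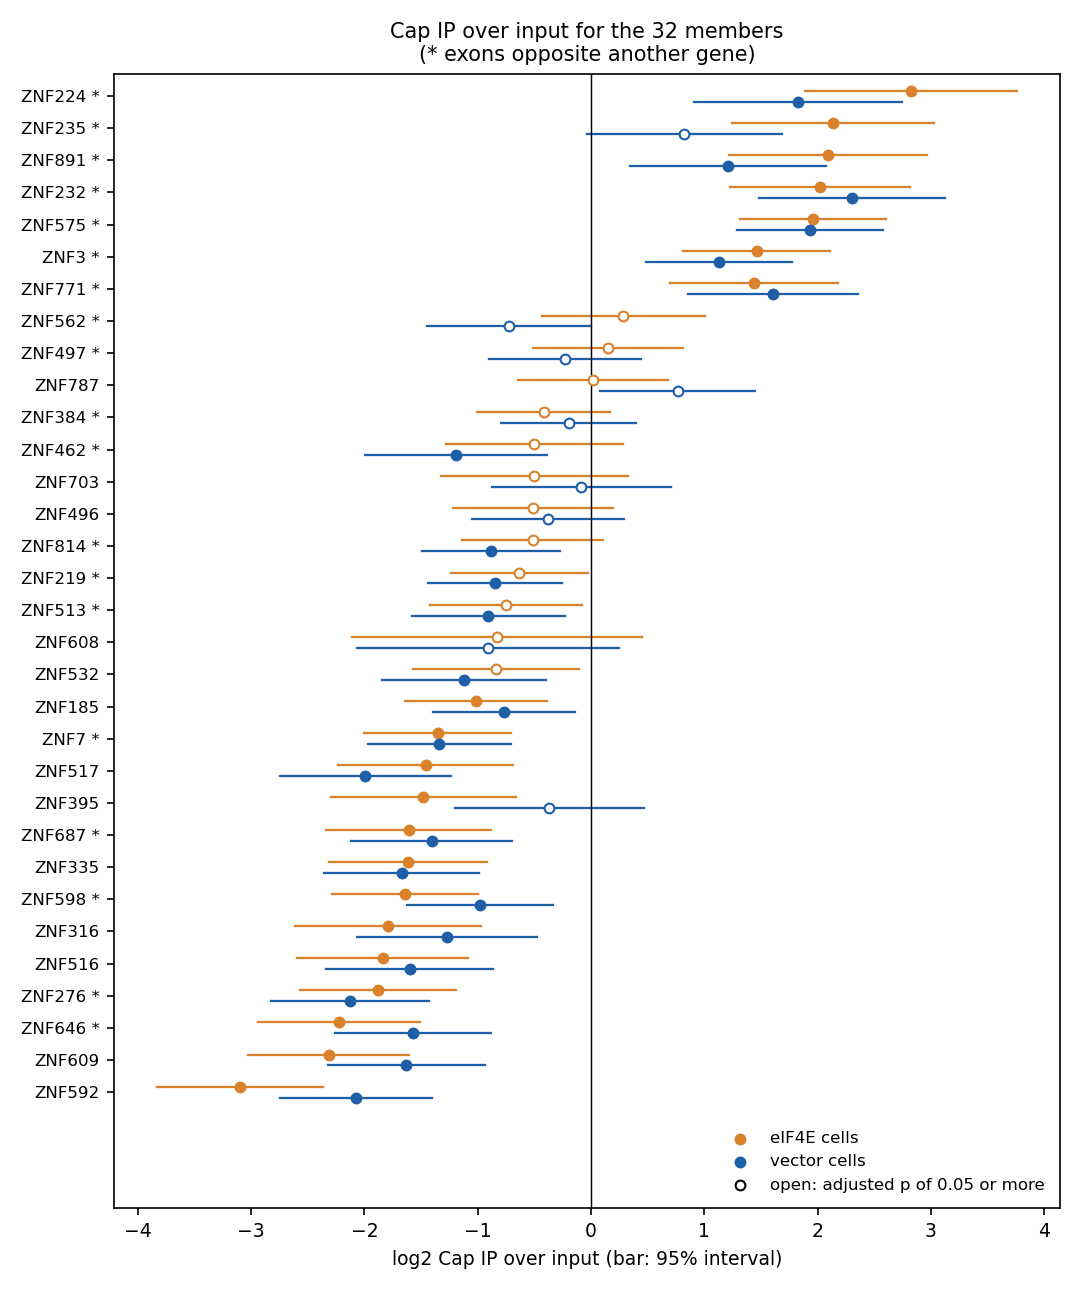
Log2 Cap IP over input for the 32 genes in eIF4E cells (orange) and vector cells (blue), with 95% intervals from edgeR's fit, in order of the value in eIF4E cells. Filled points passed an adjusted p of 0.05, and a star marks exons opposite to another gene. All 7 genes called higher carry a star, and the lowest point is ZNF592 in eIF4E cells at -3.10.

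ZNF575 lies on chromosome 19 at 43525497 to 43536130, plus strand, and had the most counts of the 32. It had 391, 596 and 442 CPM in eIF4E Cap IP, against 80.6, 117 and 169 CPM in eIF4E input. In vector cells it had 333, 554 and 375 CPM in Cap IP, against 114, 115 and 101 CPM in input. Every Cap IP library lay above every input library. The log2 change was 1.96 ± 0.31 in eIF4E cells (edgeR adjusted p = 5.32e-05) and 1.93 ± 0.31 in vector cells (edgeR adjusted p = 9.79e-05). The ETHE1 row opposite to it, at -0.10 ± 0.48 in eIF4E cells and 0.58 ± 0.53 in vector cells, did not pass.

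ZNF771 lies on chromosome 16 at 30407414 to 30431108, plus strand, with exons of DCTPP1, a gene for a nucleotide pyrophosphatase, opposite over 645 bases. It had 236, 386 and 279 CPM in eIF4E Cap IP, against 88.9, 120 and 124 CPM in eIF4E input, and 212, 348 and 155 CPM in vector Cap IP, against 86.6, 108 and 39.6 CPM in vector input. Cap IP and input did not overlap in either kind of cell (log2 1.44 ± 0.36 and 1.61 ± 0.36, edgeR adjusted p = 0.00285 and 0.00161). ZNF3, a KRAB gene on chromosome 7, had 408, 203 and 210 CPM in eIF4E Cap IP, against 133, 76.2 and 88.3 CPM in eIF4E input. Vector cells had 245, 227 and 179 CPM of ZNF3 in Cap IP, against 88.6, 113 and 95.3 CPM in input. Replicate 1 of the eIF4E libraries was the highest of its group on both sides, and the groups of ZNF3 did not overlap (log2 1.46 ± 0.31 and 1.13 ± 0.31, edgeR adjusted p = 0.000829 and 0.00696). With total counts as library sizes the ZNF3 call was lost in both kinds of cell (log2 0.58 in eIF4E cells and 0.38 in vector cells) and the ZNF771 call in eIF4E cells (0.61). Both calls were also lost in eIF4E cells with mitochondrial mRNAs as library sizes (1.48 for ZNF3 and 1.8 for ZNF771), and that of ZNF3 in vector cells without the 20 most abundant rows in the library sizes (0.63).

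ZNF232, a SCAN domain gene on chromosome 17, had 63.6, 161 and 99.2 CPM in eIF4E Cap IP, against 17.8, 23.5 and 38.9 CPM in eIF4E input. In vector cells ZNF232 had 86.5, 128 and 67.0 CPM in Cap IP, against 20.7, 24.1 and 12.2 CPM in input. Again no Cap IP library was as low as an input library, and the log2 changes were 2.02 ± 0.38 and 2.31 ± 0.39 (edgeR adjusted p = 0.000297 and 0.00017). ZNF232 held 645 counts in Cap IP and 274 in input. Its rise was thus read largely from the libraries that brought it past the threshold of the rule. A lncRNA, ZNF232-AS1, lies opposite to its exons over 474 bases, and exons of USP6 over 88.

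ZNF224 and ZNF235 are KRAB genes of the chromosome 19 cluster whose promoters are printed above. ZNF224 is known to repress the aldolase A gene. It had 103, 87.9 and 57.5 CPM in eIF4E Cap IP, against 12.7, 14.2 and 7.79 CPM in eIF4E input, the highest log2 change of the 32 at 2.83 ± 0.45 (edgeR adjusted p = 5.59e-05). Its sum of 603 counts was 438 in Cap IP and 165 in input, so its rise was read largely from the libraries that brought it past 500. In vector cells ZNF224 had 67.1, 82.0 and 26.8 CPM in Cap IP, against 29.1, 10.2 and 10.5 CPM in input. There the groups overlapped, since Cap IP replicate 3 was below input replicate 1, although the change of 1.83 ± 0.44 was called (edgeR adjusted p = 0.00278). Exons of the lncRNA ZNF225-AS1 lie opposite to ZNF224 over 3005 bases, 42.4% of its exons. ZNF235 had 212, 172 and 99.2 CPM in eIF4E Cap IP, against 44.7, 55.2 and 9.35 CPM in eIF4E input (log2 2.14 ± 0.43, edgeR adjusted p = 0.000488). Its vector Cap IP libraries had 96.3, 121 and 105 CPM, against 72.4, 46.0 and 63.7 CPM in vector input. These did not overlap either, at 0.82 ± 0.41, which did not pass without a block (edgeR adjusted p = 0.12) and passed with the title stem, which a Cap IP and an input library share, as a block (0.84 ± 0.26, edgeR adjusted p = 0.00738). The ZNF227 row opposite, at 0.41 ± 0.43 and 0.19 ± 0.41, did not pass in either.

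ZNF891, a KRAB gene on chromosome 12, had 95.4, 56.0 and 40.7 CPM in eIF4E Cap IP, against 18.2, 19.6 and 6.75 CPM in eIF4E input. In vector cells it had 68.1, 45.2 and 30.0 CPM in Cap IP, against 25.9, 13.4 and 22.3 CPM in input. Cap IP replicate 1 was the highest of its group in both kinds of cell, and no group overlapped. The changes were 2.09 ± 0.42 and 1.21 ± 0.42 (edgeR adjusted p = 0.000525 and 0.0263), and the call in vector cells was lost without Cap IP replicate 1 (0.87, adjusted p = 0.14) and without input replicate 2 (0.98, adjusted p = 0.107). It was lost as well with total counts as library sizes (0.46) and without the 20 most abundant rows in them (0.71). ZNF140, the KRAB gene opposite to its 3′ end over 2017 bases, was itself higher in the Cap IP, at 1.23 ± 0.41 and 1.18 ± 0.39. Among the 9 KRAB genes 4 were higher and 2 lower in eIF4E cells, and 3 higher and 3 lower in vector cells, against 21.9% and 23.3% of all rows in eIF4E cells and 18.5% and 21.0% in vector cells. That group was set after the values were seen.

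**Figure D4:**
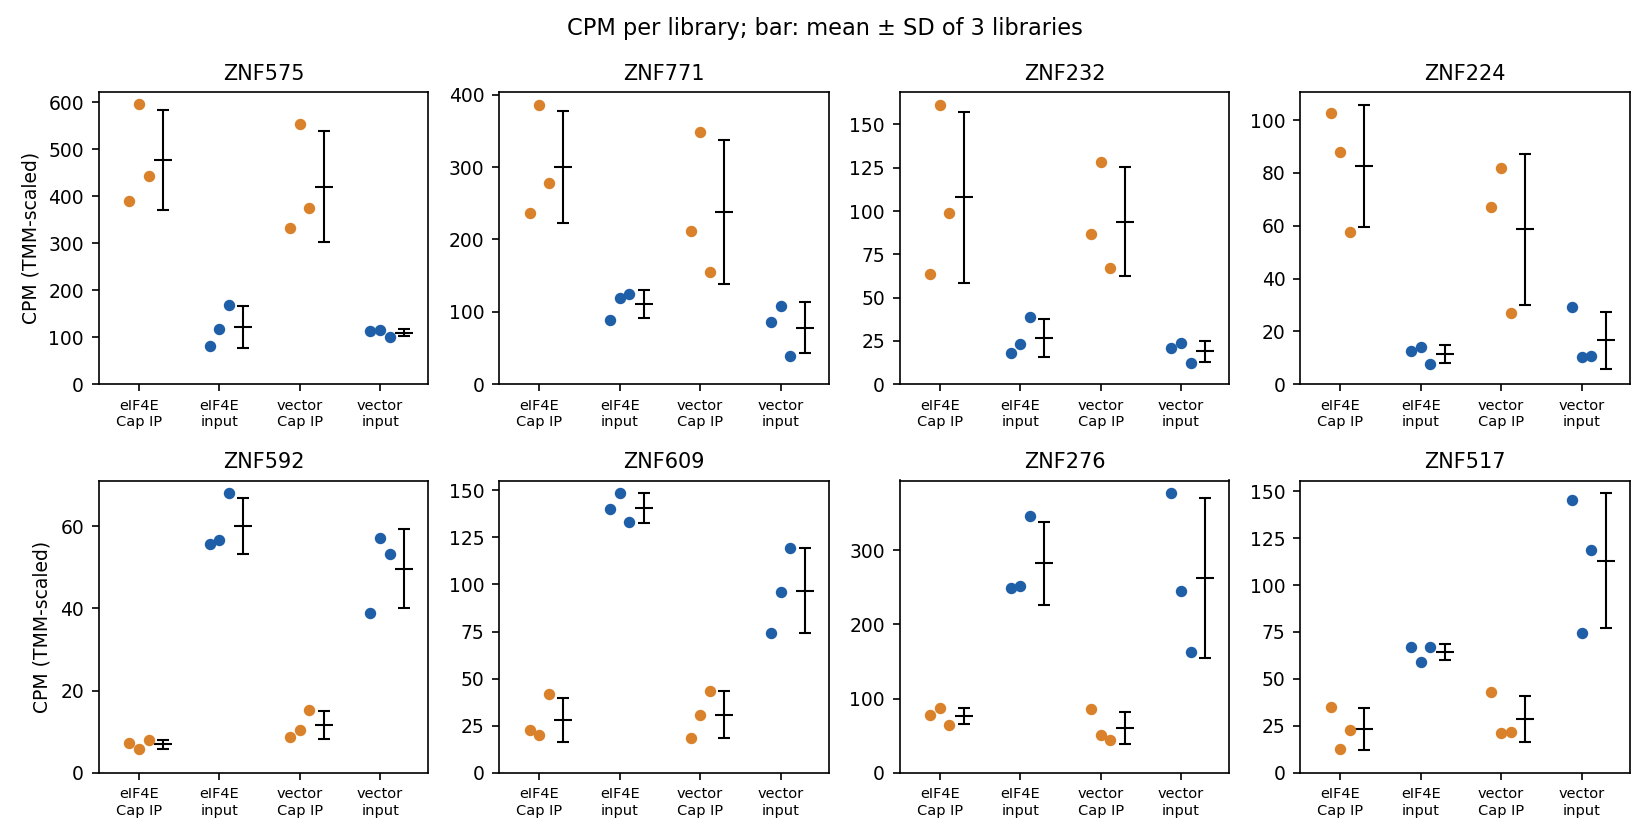
CPM (TMM-scaled) of 8 of the 32 genes in every library, Cap IP in orange and input in blue, with the mean and SD of 3 libraries beside them. In the upper row Cap IP libraries lie above input libraries, except for ZNF224 in vector cells, where 26.8 CPM in Cap IP lies below 29.1 CPM in input. In the lower row every Cap IP library lies below every input library of the same cells.

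ZNF592, on chromosome 15 at 84748592 to 84806445, plus strand, fell the most of the 32 in the Cap IP of eIF4E cells. Together with ZNF687 and ZNF532 its protein belongs to a chromatin complex built around ZMYND8. It had 7.18, 5.79 and 7.93 CPM in eIF4E Cap IP, against 55.7, 56.7 and 68.0 CPM in eIF4E input. In vector cells ZNF592 had 8.75, 10.5 and 15.3 CPM in Cap IP, against 38.8, 57.2 and 53.1 CPM in input. The groups stood far apart, at -3.10 ± 0.35 in eIF4E cells (edgeR adjusted p = 2.86e-06) and -2.07 ± 0.32 in vector cells (edgeR adjusted p = 7.46e-05). ZNF592 held 64 counts in Cap IP and 681 in input, so its fall is not free of the rule that chose it. No exons of another gene lie opposite to it. ZNF687, with exons of PI4KB opposite, was lower as well at -1.61 ± 0.35 and -1.41 ± 0.34, and ZNF532, with none opposite, at -1.12 ± 0.35 in vector cells. In eIF4E cells ZNF532 was at -0.84 ± 0.35, which did not pass (edgeR adjusted p = 0.0585), and with the title stem as a block at -0.78 (edgeR adjusted p = 0.0217). That stem does not pair eIF4E libraries by the rule used. The ZNF532 call in vector cells was lost without Cap IP replicate 1, Cap IP replicate 2 or input replicate 3 (log2 -1.08 to -0.82, edgeR adjusted p of 0.0509 to 0.0961).

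ZNF609 lies on chromosome 15 at 64460578 to 64686068, plus strand, with no exons opposite, and is known as the host of a circular RNA. It had 22.6, 20.3 and 41.6 CPM in eIF4E Cap IP, against 140, 149 and 133 CPM in eIF4E input. In vector cells it had 18.5, 30.5 and 43.4 CPM in Cap IP, against 74.3, 96.2 and 119 CPM in input. Cap IP and input of ZNF609 did not overlap (log2 -2.32 ± 0.34 and -1.63 ± 0.33, edgeR adjusted p = 2.91e-05 and 0.000754). The gene held 201 counts in Cap IP and 1492 in input, so its fall is not free of the rule that chose it. Linear and circular RNA of the gene are counted in 1 row. ZNF608, its paralog, was at -0.83 ± 0.62 in eIF4E cells and -0.91 ± 0.56 in vector cells, with overlap and without a call (edgeR adjusted p = 0.283 and 0.203). With the title stem as a block the vector value passed (-0.91 ± 0.33, edgeR adjusted p = 0.0188).

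ZNF517 had 34.9, 12.6 and 22.8 CPM in eIF4E Cap IP, against 66.8, 59.1 and 67.0 CPM in eIF4E input, and 42.8, 21.0 and 21.7 CPM in vector Cap IP, against 145, 74.3 and 119 CPM in vector input. It was lower without overlap in both (log2 -1.46 ± 0.37 and -1.99 ± 0.36). ZNF335, a subunit of a histone H3 methyltransferase complex that is mutated in microcephaly, was lower by a like amount in both, at -1.61 ± 0.33 and -1.67 ± 0.33. Its counts were 113 in Cap IP and 646 in input, so its fall is not free of the rule that chose it. ZNF516 was at -1.84 ± 0.36 and -1.60 ± 0.35, ZNF316 at -1.79 ± 0.40 and -1.27 ± 0.38, and ZNF185, the LIM domain protein, at -1.02 ± 0.30 and -0.77 ± 0.30. All of these were called lower in both kinds of cell, ZNF185 in vector cells with an edgeR adjusted p of 0.0477. That ZNF185 call was lost without any of 5 of the 6 vector libraries, all but Cap IP replicate 3 (log2 -0.85 to -0.60, edgeR adjusted p of 0.0593 to 0.179). The ZNF316 call in vector cells was lost without Cap IP replicate 1 or 2 (log2 -1.04 to -0.94, edgeR adjusted p of 0.0646 to 0.0735). ZNF516 is known in mouse as a factor of brown fat.

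The rest of the 13 genes without exons opposite did not pass in both. ZNF395 had 15.4, 21.2 and 22.8 CPM in eIF4E Cap IP, against 43.9, 36.7 and 86.2 CPM in eIF4E input, and was lower (log2 -1.48 ± 0.39, edgeR adjusted p = 0.00475). In vector cells it had 16.5, 12.6 and 23.0 CPM in Cap IP, against 12.3, 27.8 and 27.8 CPM in input, with overlap (-0.37 ± 0.40, edgeR adjusted p = 0.489). The difference between these changes was not called (-1.11 ± 0.56, edgeR adjusted p = 0.833), and was -0.66 without eIF4E input replicate 3. ZNF787 was at 0.02 ± 0.32 in eIF4E cells and 0.77 ± 0.33 in vector cells, where it did not overlap and passed with the title stem as a block (0.78 ± 0.29, edgeR adjusted p = 0.0223, against 0.0701 without). ZNF496 at -0.51 ± 0.34 and -0.38 ± 0.32, and ZNF703, a cofactor gene amplified in breast cancer, at -0.50 ± 0.40 and -0.09 ± 0.38, did not pass.

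Among genes with exons opposite, ZNF276 had the largest fall in vector cells. It lies on chromosome 16 at 89720400 to 89740925, plus strand, tail to tail with the Fanconi anaemia gene FANCA over 2409 bases of exon. It had 78.0, 86.9 and 64.4 CPM in eIF4E Cap IP, against 249, 251 and 346 CPM in eIF4E input, and 85.6, 50.4 and 44.7 CPM in vector Cap IP, against 377, 245 and 163 CPM in vector input. The groups did not overlap (log2 -1.88 ± 0.33 and -2.12 ± 0.34, edgeR adjusted p = 0.000147 and 8.43e-05). The FANCA row was lower as well, at -1.07 ± 0.28 and -1.04 ± 0.28. ZNF646, with 11.3, 5.79 and 11.9 CPM in eIF4E Cap IP, against 39.1, 41.5 and 55.6 CPM in eIF4E input, fell by 2.23 ± 0.34 on the log2 scale, and in vector cells by 1.57 ± 0.33. PRSS53, opposite to its 3′ end over 760 bases, was lower in both too, at -3.26 ± 0.86 and -2.29 ± 0.72.

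ZNF598 had 21.5, 26.1 and 43.6 CPM in eIF4E Cap IP, against 86.2, 102 and 98.1 CPM in eIF4E input (log2 -1.64 ± 0.31, edgeR adjusted p = 0.000279). Its vector libraries had 28.2, 27.3 and 27.5 CPM in Cap IP, against 59.5, 66.8 and 38.4 CPM in input (-0.98 ± 0.31, edgeR adjusted p = 0.0163). The vector call of ZNF598 was lost without Cap IP replicate 2 (-0.97, adjusted p = 0.0511) and without input replicate 2 (-0.81, adjusted p = 0.0748). ZNF7, a KRAB gene, was lower in both at -1.35 ± 0.31 and -1.34 ± 0.30. ZNF219, a partner of SOX9 in cartilage, was at -0.63 ± 0.29 in eIF4E cells and lower at -0.85 ± 0.29 in vector cells, and ZNF462, ZNF513 and ZNF814 were likewise called lower in vector cells alone, at -1.19 ± 0.38, -0.91 ± 0.32 and -0.88 ± 0.29. The ZNF219 call was lost without Cap IP replicate 1, Cap IP replicate 2 or input replicate 3 (log2 -0.75 to -0.67, edgeR adjusted p of 0.0872 to 0.107), and the ZNF462 call without input replicate 1 or Cap IP replicate 3 (-1.02 to -0.998, 0.0656 to 0.0803). The ZNF513 call was lost without any vector library but input replicate 2 (-0.98 to -0.66, 0.0501 to 0.158), and the ZNF814 call without input replicate 1, input replicate 3 or Cap IP replicate 2 (-0.85 to -0.74, 0.0564 to 0.0967). With the title stem as a block ZNF219 and ZNF513 were called lower in eIF4E cells too (log2 -0.66 and -0.75, edgeR adjusted p = 0.0235 and 0.0281). By the rule used that stem does not pair eIF4E libraries. That a gene passed in vector cells and not in eIF4E cells does not show a difference between them. ZNF384, whose gene forms fusions in leukaemia, ZNF497 and ZNF562 passed in neither.

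The change from input to Cap IP was also compared between the kinds of cell, as the difference of the eIF4E change and the vector change. Of the 32 genes 0 were called by edgeR or DESeq2, and 0.0% of all rows were called by edgeR. At an unadjusted p under 0.05 there were 2, ZNF235 and ZNF592, or 6.25%, against 5.84% of all rows. ZNF235 changed more in eIF4E cells by 1.31 ± 0.59 (edgeR adjusted p = 0.833; 0.86 without eIF4E input replicate 3), and ZNF592 fell further in eIF4E cells, by -1.02 ± 0.48 (edgeR adjusted p = 0.833). The title stem does not pair eIF4E libraries by the rule used. With it as a block 0 of the 32 were called again, while 51 of all rows (0.409%) were, all higher. There 6 of the 32 (18.8%) had an unadjusted p under 0.05, against 11.6% of all rows, and ZNF235 was at 1.47 ± 0.38 (edgeR adjusted p = 0.0543). For ZNF235 the log2 change per pair of libraries with the same title stem was 2.20, 1.60 and 3.16 in eIF4E cells, against 0.40, 1.36 and 0.71 in vector cells. All 3 eIF4E pairs lay above the vector pairs. The median difference over the 32 was 0.01, against 0.02 over all rows.

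Length and position of the genes were set beside these changes as a description. Over the 32 genes Spearman's rho between exon bases and the log2 change in the Cap IP was -0.27 in eIF4E cells and -0.43 in vector cells. Over the 13 genes without exons opposite it was -0.53 and -0.48, and over the 19 with them -0.13 and -0.36. The points share libraries and scaling. Of the 7 genes on chromosome 19, 3 were called higher in eIF4E cells, and 2 higher and 1 lower in vector cells. Of the 25 on other chromosomes 4 were higher and 13 lower in eIF4E cells, and 4 were higher and 16 lower in vector cells. Of all rows 21.9% were higher and 23.3% lower in eIF4E cells, and 18.5% and 21.0% in vector cells.

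Genes for the partners of KRAB proteins were read from a list of 31, of which 29 were tested. In eIF4E cells 3 were higher and 14 lower in the Cap IP, with a median of -0.73, and in vector cells 2 were higher and 10 lower, with a median of -0.69, against the shares of all rows given above. TRIM28, the scaffold that KRAB boxes bind, was lower at -1.31 ± 0.32 and -0.82 ± 0.32, and SETDB1, the methyltransferase it recruits, at -1.36 ± 0.36 and -1.66 ± 0.37. MORC2, an ATPase of HUSH silencing, was lower at -2.58 ± 0.38 and -1.99 ± 0.38, and CHD4, the remodeller of the NuRD complex, at -1.59 ± 0.27 and -1.43 ± 0.27. CBX3, a reader of H3K9 methylation, was higher at 1.81 ± 0.26 and 1.19 ± 0.25. Between eIF4E and vector cells TRIM28 was at 0.95 ± 0.31 in input, without overlap, which did not pass edgeR's test (adjusted p = 0.17).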

How the data were processed

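Input and Cap IP RNA of U2OS cells with eIF4E-Flag or the vector was sequenced in 12 libraries, and the authors deposited raw counts per gene name for each. The submitters' processing notes name STAR 2.5.1b, featureCounts 1.4.5-p1, DESeq2 and the build GRCh38.p5. No source used here gives the strand setting of the counting or its annotation. Antisense reads, overlapping genes and near-identical zinc finger paralogs may therefore share or split counts. Per the labels, the kit was KAPA RNA HyperPrep with RiboErase and reads were single-end. The raw reads were not analysed here.

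The deposited counts were fitted with edgeR 4.0.16 (limma 3.58.1, R 4.3.3), using rows kept by filterByExpr (12460 of 58684), TMM scaling, 1 model of all 12 libraries with a coefficient per group, and glmQLFTest for 5 contrasts. Rows with an adjusted p (Benjamini-Hochberg, over all rows tested) under 0.05 were called. Standard errors and 95% intervals come from that fit. Counting floors cover counting error only.

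The 32 genes and the lists were chosen with earlier results of these data known, and the KRAB and SCAN groups were set from background knowledge after the values were seen. Names were taken by rule: the 6 largest sums, 3 genes on each side of the threshold, up to 8 called genes in each direction per contrast or else the 3 smallest p, up to 4 in each direction without exons opposite, genes with textbook roles, up to 4 corepressors and the genes opposite. Other called genes were named after their values were seen. No division by protein motifs was made. Gene models came from GENCODE release 44, which matched 33749 rows by symbol (57.2% of the counts), and promoters from RefSeq (GRCh38.p14). Tables were made with pandas 2.3.3, SciPy 1.17.1 and NumPy 2.4.6 in Python 3.11.15, and figures with matplotlib 3.10.9.

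Titles of Cap IP and input libraries share a stem, and titles of eIF4E and vector libraries share a tag. Correlations of residuals were 0.35, 0.08 and 0.11 for the stem in eIF4E cells and 0.43, 0.27 and 0.44 in vector cells, and 0.20, 0.16 and 0.30 for the tag in Cap IP and 0.18, 0.01 and -0.04 in input. By the rule that every pair exceed 0.1, the stem pairs vector libraries and the tag pairs Cap IP libraries. Such a rule rests on correlations and cannot show which libraries came from the same culture, which the labels do not say. It therefore does not show that the eIF4E libraries, where the stem gave 0.08 in 1 pair, are unpaired. Alternatives were DESeq2 1.42.0, its size factors, 3 other library sizes, other filters, only the groups compared, replicate blocks, thresholds of 250 and 1000 counts, and leaving out each library. On simulated data, 200 changed rows were set among 12460. For eIF4E against vector in input the procedure called 81% of those changed 4-fold and 8% of those changed 2-fold. In Cap IP these shares were 60% and 7%. For Cap IP against input they were 62% and 3% in eIF4E cells, and 66% and 4% in vector cells. For the difference they were 20% and 1%. The genes described here were chosen for high counts, and these shares were not measured on them. Far more than 200 rows were called in Cap IP against input, so the shares do not describe that comparison.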

Additional observations from a re-analysis of the deposited data

How the results depend on the processing

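Libraries held 1206321 to 1813486 counts, with 3 per group. In simulated data with 200 changed rows, 1% to 8% of 2-fold changes were called. These shares were not measured on the genes described here, which were chosen for high counts. In Cap IP against input, where 39.5% to 45.1% of rows were called, some changes under 2-fold were called too. The numbers called in Cap IP against input were the same with DESeq2 and its size factors. In eIF4E cells, 13 genes lower became 22 with total counts, 21 with library sizes without the 20 most abundant rows and 3 with mitochondrial mRNAs as library sizes. Of all rows 46.6%, 39.0% and 5.67% were lower there in turn, against 23.3% in the main fit. In vector cells, 17 lower became 0 with mitochondrial mRNAs (4.43% of all rows lower), where the median of the 32 turned to 0.19. With mitochondrial mRNAs ZNF497 (0.93), ZNF562 (0.50), ZNF598 (0.16), ZNF703 (0.62), ZNF395 (0.42) and ZNF384 (0.85) also turned above 0 in vector cells. In eIF4E cells values turned below 0 with total counts for ZNF787 (-0.77), ZNF497 (-0.68) and ZNF562 (-0.57), and without the 20 most abundant rows (-0.53, -0.43 and -0.32). ZNF787, at 0.02, also turned with DESeq2 size factors (-0.00485), no filter (-0.14), at least 50 counts in 3 libraries (-0.0179), a fit of the eIF4E groups alone (-0.0705), DESeq2 (-0.00390) and the title stem as replicate block (-0.0112), and ZNF497 with no filter (-0.0168). The cause was not tested. A threshold of 1000 counts left 11 genes, with 4 higher and 5 lower in eIF4E cells and 3 and 6 in vector cells. A threshold of 250 counts gave 72 genes, with 16 and 24, and 18 and 25. Shares of all rows were 21.9% higher and 23.3% lower in eIF4E cells, and 18.5% and 21.0% in vector cells. Median log2 changes in eIF4E cells were -0.63 at 1000 counts and -0.51 at 250, against -0.69 for the 32. Those in vector cells were -0.85 and -0.46, against -0.86. The fall of the median was thus smaller at 250 counts in both kinds of cell. Only genes without exons opposite gave 0 higher and 8 lower in each kind of cell. These were not the same 8, since ZNF395 was called lower in eIF4E cells alone and ZNF532 in vector cells alone. In input, 1 gene was higher in eIF4E cells with no filter (0.407% of all rows). With the tag as replicate block 1, ZNF395 (edgeR adjusted p = 0.018), was higher there (1.28% of all rows), although the tag does not pair input libraries by the rule used. At 250 counts 1 gene was lower (0.425% of all rows). Among Cap IP libraries the tag block called 0. With the title stem as replicate block 7 were higher and 16 lower in eIF4E cells, where ZNF219, ZNF513 and ZNF532 were added. By the rule used the stem does not pair eIF4E libraries. In vector cells 8 were higher and 18 lower, where ZNF235, ZNF608 and ZNF787 were added. That block called 26.1% of all rows higher and 27.6% lower in eIF4E cells, and 23.3% and 25.5% in vector cells. It changed no other call. Leaving out each library gave 7 to 7 higher and 13 to 15 lower in eIF4E cells, 5 to 6 higher and 10 to 16 lower in vector cells, and 0 in the other comparisons. It moved ZNF787 between -0.20 and 0.28 and ZNF497 between -0.0888 and 0.31 in eIF4E cells, ZNF497 between -0.51 and 0.0401 and ZNF703 between -0.68 and 0.44 in vector cells, and ZNF703 between -0.88 and 0.0171 for eIF4E against vector in the Cap IP.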

Other observations

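Zinc finger families with other names were read as well. Of 25 ZBTB rows tested, whose proteins join zinc fingers to a BTB domain, 3 were higher and 8 lower in the Cap IP of eIF4E cells, and 4 were higher and 4 lower in vector cells, with medians of -0.57 and -0.22 on the log2 scale. Of 10 ZSCAN rows 2 were lower in eIF4E cells and 3 in vector cells. Of 12 KLF and SP rows, whose proteins bind GC boxes, 2 were higher and 3 lower in each. Of all rows 21.9% were higher and 23.3% lower in eIF4E cells, and 18.5% and 21.0% in vector cells. At the threshold of 500 counts, ZNF143, whose protein binds the motif marked in the promoters of ZNF224 and ZNF235, lay just outside with 484 counts. The ZNF143 row was higher in the Cap IP, at 1.5 ± 0.32 in eIF4E cells and 1.92 ± 0.31 in vector cells (edgeR adjusted p = 0.000788 and 0.000113). A link between this row and the genes with the motif was not tested.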
